A study of Camellia sinensis with 12 samples.

Results

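Leaf RNA of the tea genotype Kucha-11 (K11) was set against leaf RNA of the conventional variety Qingxin 1 (QX1), with 3 sequencing libraries of each. These 6 libraries were taken by their genotype labels from a series of 12, whose other 6 libraries come from the Kucha genotype Kucha-6 (K6) and the conventional variety Yinghong 9 (YH9). All plants stood in the same germplasm bank and received no treatment, per the labels. No plant age, leaf position, harvest time or number of plants per library is given, so the spread between libraries of a genotype may be technical, and each genotype stands for itself alone. The series was designed around the contrast in theacrine between Kucha and conventional tea.

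Tea leaves store purine alkaloids. Caffeine is made from xanthosine by stepwise transfer of methyl groups from S-adenosylmethionine, through methylxanthine intermediates and theobromine, and N-methyltransferases known as caffeine synthases carry out the later steps. Theacrine, a bitter-tasting tetramethyluric acid that Kucha leaves accumulate, is derived from caffeine by oxidation and a further methylation. The tables identify annotated genes only by TEA identifiers and unannotated transcribed loci by XLOC identifiers. Of these identifiers 0 occur in the reference table of 80110 tea genes, so no gene name or role is attached to any feature, leaf marker genes could not be looked up, and the genes of this pathway were not examined by name. No sequence is shown for the same reason.

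Each library lists 42704 features, 33932 TEA genes and 8772 XLOC loci, with an FPKM value (fragment numbers adjusted for feature length and for library size). Summed FPKM ran from 623828 to 636916 in K11 libraries and from 635896 to 653908 in QX1 libraries. At least 1 FPKM was reached by 25458 ± 189.7 features in K11 and by 24900.0 ± 133 in QX1 (mean ± SD, n = 3 libraries each). Read depth is not listed, but the FPKM of short XLOC loci (277 to 800 bases), multiplied by their length in kilobases, heaped up at a smallest common value of 0.095 to 0.11 in K11 libraries and 0.083 to 0.12 in QX1 libraries. If that step is a single fragment, 1 FPKM in a feature of 1 kilobase stands for 8.8 to 11 fragments in K11 libraries and 8.7 to 12 in QX1 libraries, a similar depth in both. Values below 1 FPKM in features of that length would then rest on few fragments. Pearson correlations of log2(FPKM + 1) over the tested features were 0.977 to 0.979 among K11 libraries and 0.979 to 0.981 among QX1 libraries, against 0.809 to 0.829 between the genotypes. No library stood apart from its genotype on this measure. The median coefficient of variation of a feature between 10 and 100 FPKM was 8.94% in K11 and 9.08% in QX1.

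The comparison asked which leaf transcripts differ between K11 and QX1. It covered 26539 features, 21218 TEA genes and 5321 XLOC loci, that reached 1 FPKM in 3 or more of the 6 libraries. A feature was called when limma gave a Benjamini-Hochberg adjusted p below 0.05 and the genotypes differed by at least 1 on the log2(FPKM + 1) scale. That is 2-fold in FPKM + 1, and the fold thresholds and counts below are on the same scale. For a feature near 0 in either genotype this understates the fold in FPKM. K11 was higher in 3019 features (11.4%) and lower in 2425 (9.14%), so 20.5% of the tested features were called. The median difference was 1.52 among the higher features and -1.59 among the lower ones. Differences of at least 8-fold were reached by 273 higher and 244 lower features, and of at least 32-fold by 15 higher and 36 lower features. The 3 K11 libraries did not overlap the 3 QX1 libraries in 58.1% of all tested features and in 99.4% of the called ones. An adjusted p below 0.05 without regard to size was reached by 13590 features (51.2%). In leaf samples of this kind, fewer cells that express a gene and less of its RNA per cell cannot be told apart.

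The surplus of higher features was not kept under other scalings of the libraries. Over all tested features the median difference was 0.09, and scaling by a trimmed mean of M-values (TMM) brought it to -0.01. With TMM scaling K11 was higher in 2704 and lower in 2694 features, and with quantile normalization in 2811 and 2808. The share of higher calls was then 50.1% and 50%, in place of 55.5%. Both scalings re-centre the libraries by design, so a near-even split does not show where the surplus came from.

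**Figure D1:**
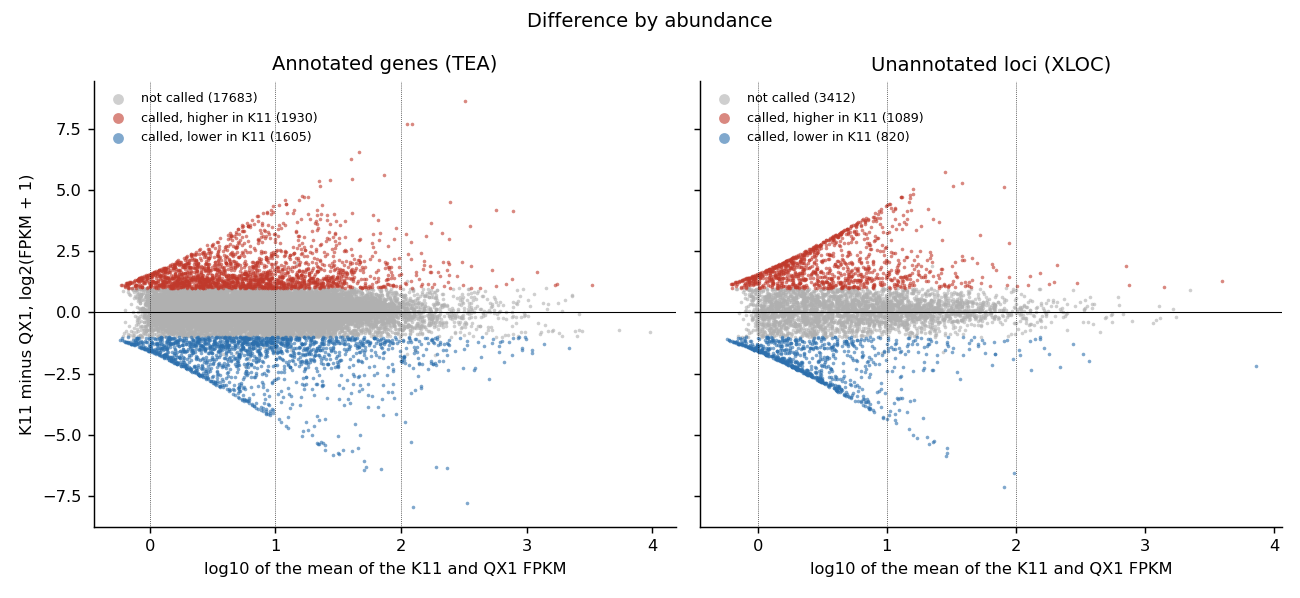
Difference of K11 minus QX1 on the log2(FPKM + 1) scale (vertical axis) against the mean of the K11 and QX1 FPKM (horizontal axis, log10), for TEA genes on the left and XLOC loci on the right. Each point is a tested feature, dotted lines mark 1, 10 and 100 FPKM, and the called TEA genes number 1930 higher and 1605 lower in K11. The straight outer edges come from features near 0 in one genotype, whose difference cannot exceed what their level in the other allows.

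The called features held a sizeable part of the transcript pool. Features called higher took 14.1% ± 0.49 of the summed FPKM in K11 libraries and 4.19% ± 0.27 in QX1 libraries (SD, n = 3 each). Features called lower took 5.01% ± 0.53 in K11 and 16.4% ± 0.52 in QX1. The same sets were chosen for their difference between these genotypes, so these shares describe its weight and do not test it. In the libraries that the contrast did not use, the higher set took 5.99% ± 0.076 in K6 and 7.81% ± 0.16 in YH9. The lower set took 14.5% ± 0.32 in K6 and 9.76% ± 0.39 in YH9. K6 and YH9 each lay between K11 and QX1 for both sets, with K6 nearer QX1 than YH9 was. Choosing the sets for their difference between K11 and QX1 makes such a middle place likely for any other genotype.

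**Figure D2:**
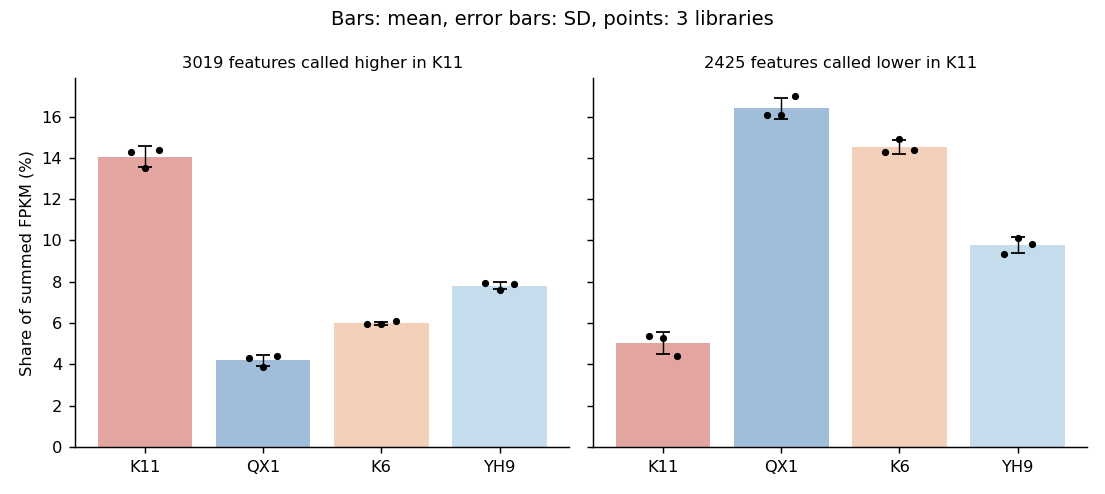
Share of the summed FPKM (vertical axis, percent) held by the features called higher (left) and lower (right) in K11, per genotype, with bars for the mean, error bars for the SD and points for the 3 libraries. The higher set took 14.1% in K11 and 4.19% in QX1, and the lower set 5.01% in K11 and 16.4% in QX1.

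The balance of the calls was not the same at all levels of abundance, which is given as a description with no test. Features were put into classes by the mean of their K11 and QX1 levels. Of the 888 features at 100 FPKM or more, 70 were higher and 124 lower in K11, so 36.1% of the calls were higher, whereas 763 were higher and 601 lower between 10 and 100 FPKM and 2027 were higher and 1550 lower between 1 and 10 FPKM. Below 1 FPKM the numbers were 159 and 150. Lower calls outnumbered higher ones in the most abundant class under both other scalings as well, with 60 higher and 139 lower under TMM scaling and 72 higher and 106 lower under quantile normalization. When the class was set by the K6 and YH9 levels, 52 features were higher and 155 lower. That classing is no independent check, because K6 resembled QX1 more than K11 (mean Pearson correlation 0.903 against 0.846). It therefore tends to admit features that are abundant in QX1. Among the TEA genes of this class 58 were higher and 110 lower, and among its XLOC loci 12 were higher and 14 lower. The median difference over the tested features of the class was -0.07, against -0.18 under TMM scaling and 0.01 under quantile normalization.

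Most abundant features that were called differed in degree. Among the 70 higher ones the median level was 311 FPKM in K11 and 88.9 FPKM in QX1, and among the 124 lower ones it was 93.6 FPKM in K11 and 276 FPKM in QX1. Among the higher ones 12, and among the lower ones 9, differed at least 8-fold. Beside the calls, 389 features of the class passed the adjusted p threshold with a difference under 2-fold, 197 of them higher and 192 lower in K11. In 296 of the 888 (33.3%) the 95% interval of the difference lay within 0.5 of 0 on the log2 scale, so levels in the genotypes were close. Of all tested features, 6763 (25.5%) met that bound.

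On the log2(FPKM + 1) scale the greatest rise of any tested feature was that of the TEA gene TEA009099.1. Its FPKM was 726, 544 and 678 in K11 libraries, against 1.21, 0.65 and 0.16 in QX1 libraries. All K11 libraries stood far above all QX1 libraries. On this scale, which all differences below share, the rise was 8.64 ± 0.25 (SE; limma, adjusted p = 1.30e-10). TEA010054.1 followed with 221, 219 and 225 FPKM in K11, against 0.18, 0 and 0 in QX1, a difference of 7.72 ± 0.14 (SE; limma, adjusted p = 5.50e-13). For features near 0 on one side the pseudocount sets much of the difference. With 0.1 in place of 1 it was 9.99 for TEA009099.1 and 10.62 for TEA010054.1, so their order turned, and 28 of the 36 features named by rule differed by over 1.5 times more in fold. Another gene, TEA030024.1, fell just short of the naming rule of 2 genes per class and was added after its values were seen. It had 264, 232 and 238 FPKM in K11 and 0.12, 0.33 and 0.08 in QX1, a difference of 7.71 ± 0.11 (SE; limma, adjusted p = 4.14e-14). These 3 genes are all the abundant features that were higher in K11 with a QX1 mean below 1 FPKM. The other genotypes did not treat them alike. TEA009099.1 stood at 285, 513 and 294 FPKM in K6 and at 0, 0.3 and 0.19 FPKM in YH9, whereas TEA030024.1 stood at 20.2, 22.7 and 19.1 FPKM in K6 and at 115, 116 and 98.7 FPKM in YH9.

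Among abundant TEA genes the greatest fall was that of TEA030850.1. It was listed at 0 in all 3 K11 libraries, against 276, 202 and 265 FPKM in QX1, and the difference was -7.94 ± 0.16 (SE; limma, adjusted p = 1.04e-12), or -11.26 with a pseudocount of 0.1. No other genotype approached the QX1 level: the gene was listed at 0 in all 3 K6 libraries and at 0.11, 0 and 0.37 FPKM in YH9. TEA030368.1 had 4.65, 0.83 and 1.55 FPKM in K11, against 693, 667 and 639 FPKM in QX1, a difference of -7.81 ± 0.30 (SE; limma, adjusted p = 2.14e-09). Here it was K11 that stood alone, since the gene reached 307, 367 and 391 FPKM in K6 and 247, 274 and 248 FPKM in YH9.

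Abundant XLOC loci differed by far less than the leading TEA genes, by at most 1.93 upward and -2.36 downward. XLOC_018040 (scaffold 1916, minus strand, positions 2536538 to 2542908) had 328, 334 and 312 FPKM in K11, against 83.8, 60.9 and 118 FPKM in QX1, a difference of 1.93 ± 0.21 (SE; limma, adjusted p = 8.27e-06). XLOC_064905 (scaffold 8306, minus strand, positions 478925 to 481554) had 1009.8, 1221 and 1132 FPKM in K11, against 317, 255 and 329 FPKM in QX1, a difference of 1.90 ± 0.14. In both loci K6 and YH9 lay below QX1, at 32.8 to 55.1 and 5.27 to 6.2 FPKM for the first and at 164 to 212 and 121 to 159.7 FPKM for the second. In the other direction, XLOC_014055 (scaffold 1710, minus strand, positions 190774 to 192040) had 72.1, 50.2 and 17.2 FPKM in K11, against 151, 208 and 289 FPKM in QX1. Its difference of -2.36 ± 0.42 was the least precise of this group (SE; limma, adjusted p = 7.63e-04), and the K11 libraries spread over a wider range than those of XLOC_042330. Without K11 replicate 3, the library at 17.2 FPKM, the difference was -1.77, against -2.27 for XLOC_042330. That locus (scaffold 3874, minus strand, positions 215327 to 217965) had 72.3, 76.7 and 83.4 FPKM in K11, against 376, 377 and 339 FPKM in QX1, a difference of -2.22 ± 0.09. For XLOC_042330 the K6 and YH9 libraries ran from 316 to 383 FPKM, so K11 was the low genotype. Positions follow the tables as deposited. The sources used here name no genome build for them, and TEA genes carry no position.

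**Figure D3:**
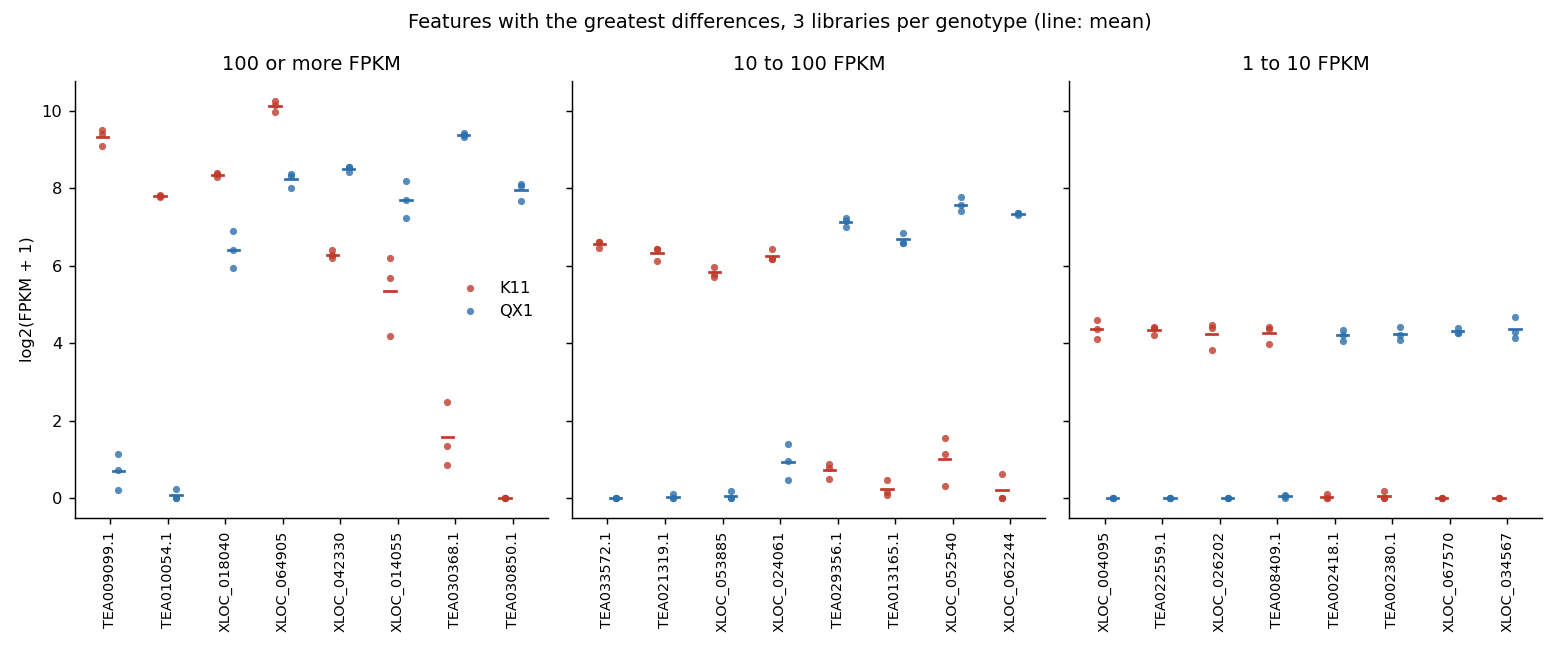
FPKM on the log2(FPKM + 1) scale (vertical axis) of the TEA genes and XLOC loci with the greatest differences, in panels by abundance class, with K11 left of QX1 for each feature, points for the 3 libraries and a line for the mean. TEA009099.1 stands highest above its QX1 libraries in the first panel. In the panel for 1 to 10 FPKM every feature is near 0 in one genotype.

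In absolute terms the greatest losses and gains among the called features lay elsewhere. The unannotated locus XLOC_064824 (scaffold 825, plus strand, positions 411838 to 413583) had 2014, 3663 and 2331 FPKM in K11, against 11165, 11351 and 12701 FPKM in QX1. With 11739 ± 839 FPKM it was the second most abundant feature of QX1, and with 2669 ± 875 FPKM it ranked eighth in K11 (SD, n = 3 each). Its difference was -2.18 ± 0.17 (SE; limma, adjusted p = 2.27e-07), or -1.47 after quantile normalization, and K6 was at the QX1 level with 10612 to 11418 FPKM while YH9 was below K11 with 819.6 to 993 FPKM. TEA001864.1 came next among the called losses, with 1213, 1215 and 1082 FPKM in K11 and 3028, 3405 and 3082 FPKM in QX1. The greatest gain among called features was that of XLOC_032209 (scaffold 2907, minus strand, positions 33636 to 36175), with 5990.4, 4717 and 5872 FPKM in K11 and 2256, 2005 and 2559.7 FPKM in QX1, a difference of 1.28 ± 0.13. TEA032499.1 came next among the called gains, with 4648, 4819 and 4178 FPKM in K11 and 2279.9, 1503 and 2598 FPKM in QX1. Its difference of 1.13 ± 0.18 passed both thresholds (limma, adjusted p = 1.67e-04), but without QX1 replicate 2, the library at 1503 FPKM, it was 0.90 and no longer reached 2-fold.

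At the top of the abundance order the genotypes shared 4 of their 10 most abundant features. The most abundant one in both was TEA017601.1, with 6950.0 ± 975 FPKM in K11 and 12125 ± 749 FPKM in QX1 (SD, n = 3 each). Its difference of -0.81 ± 0.13 passed the p threshold but not the 2-fold one (limma, adjusted p = 1.69e-04). The same held for TEA009793.1, with 4073 ± 213 FPKM in K11 and 6694 ± 388 FPKM in QX1, whereas TEA009770.1 did not pass the test, with 2532 ± 275 FPKM in K11 and 2667 ± 149 FPKM in QX1. Of the 16 features in either list, 5 were called, XLOC_032209, TEA032499.1 and TEA015653.1 as higher and XLOC_064824 and TEA001864.1 as lower in K11. All features of this paragraph that the rule for named features did not give were listed because of their rank in abundance.

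Between 10 and 100 FPKM the leading features were close to absent in one genotype. A class mean below 100 FPKM lets a feature at 0 in one genotype differ by at most 7.65, so the greatest differences of a class sit near its upper edge. TEA033572.1 had 87, 96.5 and 96.3 FPKM in K11 and was listed at 0 in all 3 QX1 libraries, a difference of 6.56 ± 0.69 (SE; limma, adjusted p = 2.22e-05). TEA021319.1 had 68.7, 85.6 and 85.2 FPKM in K11, against 0, 0 and 0.09 FPKM in QX1, and it stayed below 1 FPKM in every K6 and YH9 library, so the gene was high in K11 alone of the 4 genotypes. The XLOC loci XLOC_053885 (scaffold 559, plus strand, positions 332452 to 334114) and XLOC_024061 (scaffold 22940, minus strand, positions 511 to 1196) led the rise among unannotated features. The first had 51.8, 54.5 and 61.6 FPKM in K11 and 0.15, 0 and 0 FPKM in QX1. The second had 71.3, 71 and 85.5 FPKM in K11 and 0.94, 1.65 and 0.4 FPKM in QX1. Their differences were 5.76 ± 0.14 and 5.31 ± 0.18 (SE). With a pseudocount of 0.1 they were 8.69 and 6.29, and that of TEA033572.1 was 9.87.

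Among the lower features of this class XLOC_062244 (scaffold 747, plus strand, positions 1425639 to 1428159) led with a difference of -7.14 ± 0.17 (SE; limma, adjusted p = 7.80e-12), or -9.76 with a pseudocount of 0.1. It had 0.55, 0 and 0 FPKM in K11, against 164, 165 and 157 FPKM in QX1, and at most 0.14 FPKM in any K6 or YH9 library. The locus was thus high in QX1 alone. XLOC_052540 (scaffold 528, minus strand, positions 957063 to 958244) had 1.2, 1.93 and 0.25 FPKM in K11, against 189, 168 and 216 FPKM in QX1. TEA013165.1 had 0.38, 0.12 and 0.06 FPKM in K11 and 115, 95.8 and 95 FPKM in QX1, a difference of -6.44. TEA029356.1 had 0.72, 0.84 and 0.42 FPKM in K11 and 142, 127 and 148 FPKM in QX1, a difference of -6.40. In none of these 8 features did a K11 library overlap a QX1 library, as the naming rule required.

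The error of some of these differences depended on a genotype outside the contrast. K6 replicate 2 was low in XLOC_052540, at 8.83 FPKM beside 101 and 78.6 FPKM in the other K6 libraries, and likewise in TEA029356.1 at 17.2 beside 56.2 and 43.8 FPKM. The spread is estimated over all 4 genotypes, and the SE of XLOC_052540 was 0.88 in that fit and 0.27 in a fit on K11 and QX1 alone. For TEA033572.1 the SE was 0.69 and 0.11 in the same way.

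Between 1 and 10 FPKM the greatest differences again belonged to features near 0 on one side, where at most 4.39 is possible. TEA022559.1 had 17.5, 19.9 and 20.6 FPKM in K11 and was listed at 0 in all 3 QX1 libraries, a difference of 4.34 ± 0.16 (SE; limma, adjusted p = 3.04e-10), or 7.60 with a pseudocount of 0.1. TEA008409.1 had 20.3, 19.8 and 14.9 FPKM in K11, against 0.05, 0 and 0.06 FPKM in QX1. XLOC_004095 (scaffold 11795, minus strand, positions 343 to 1610) had 16.2, 19.7 and 23.4 FPKM in K11, and XLOC_026202 (scaffold 2437, minus strand, positions 274754 to 275337) had 13.3, 21 and 19.9 FPKM, both listed at 0 in every QX1 library. In K11 these XLOC loci were well above the level of a single step, which was not worked out for the TEA genes.

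On the lower side of this class TEA002380.1 had 0.14, 0 and 0 FPKM in K11, against 16.1, 20.6 and 17.6 FPKM in QX1, and was higher still in K6 with 81.8, 129 and 106 FPKM. TEA002418.1 had 0, 0 and 0.09 FPKM in K11, against 19.2, 15.8 and 17.4 FPKM in QX1. XLOC_034567 (scaffold 3106, minus strand, positions 243752 to 245361) was listed at 0 in all K11 libraries, against 16.6, 18.6 and 24.7 FPKM in QX1. XLOC_067570 (scaffold 91, minus strand, positions 2147465 to 2148478) was also listed at 0 in K11, against 18.2, 18.2 and 20.1 FPKM in QX1, and no K6 or YH9 library exceeded 0.5 FPKM. With a pseudocount of 0.1 in place of 1, the difference of XLOC_034567 was -7.63, against -4.37. The highest adjusted p of the 8 features named in this class was 3.85e-09 (limma), that of XLOC_004095.

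XLOC loci were called more often than TEA genes in every class below 100 FPKM. Over all classes 35.9% of the XLOC loci and 16.7% of the TEA genes were called, 2.15 times as often. Between 1 and 10 FPKM the shares were 41.3% of XLOC loci and 18.8% of TEA genes, and between 10 and 100 FPKM they were 20.1% and 12.3%. At 100 FPKM or more the order turned, with 17.9% of 145 XLOC loci and 22.6% of 743 TEA genes. Both kinds had more higher than lower calls, 1089 and 820 for XLOC loci and 1930 and 1605 for TEA genes, before rescaling. The called loci were also shorter in genomic span, with a median of 2742 bases for the higher and 2734 bases for the lower ones, against 4373 bases for loci that were not called. The sources used here do not say by what steps these loci were found. Whether span or abundance bears on the call rate was not tested.

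**Figure D4:**
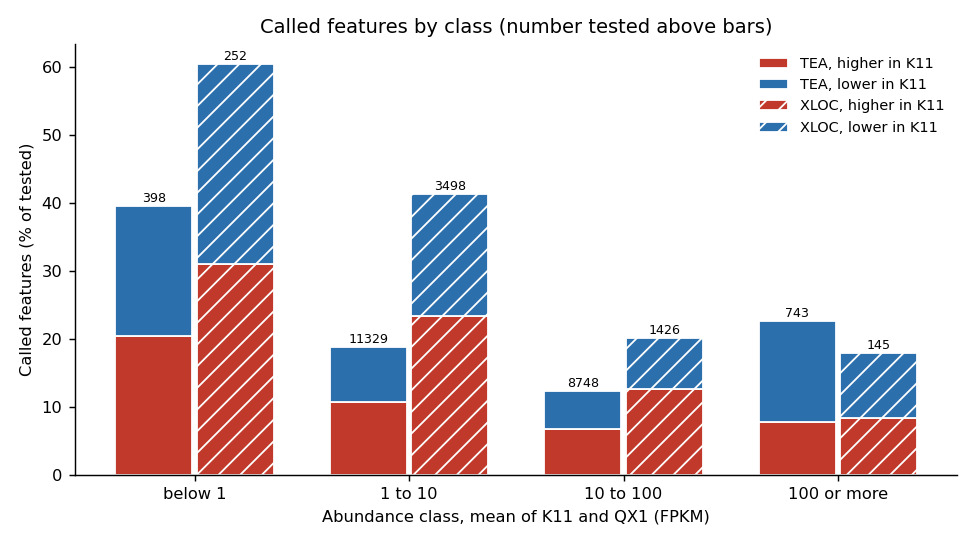
Share of tested features that were called (vertical axis, percent) in 4 abundance classes by mean FPKM (horizontal axis), with plain bars for TEA genes and hatched bars for XLOC loci, split into higher (red) and lower (blue) in K11. Numbers above bars are features tested. XLOC loci exceed TEA genes in the first 3 classes, and TEA genes are 22.6% called at 100 FPKM or more.

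Some features were on in one genotype and off in the other, meaning at least 1 FPKM in all 3 libraries of one and listed at 0 in all 3 of the other. Present in K11 and listed at 0 in QX1 were 241 features (0.564% of those listed), 66 TEA genes and 175 XLOC loci. The reverse held for 334 features (0.782%), 125 TEA genes and 209 XLOC loci, which were listed at 0 in K11 and present in QX1. XLOC loci had the larger share: 1.99% of XLOC loci and 0.195% of TEA genes were on in K11 alone of this pair, and 2.38% of XLOC loci and 0.368% of TEA genes in QX1 alone. All 575 features were also called, which their definition all but ensures. Most were low, with a median of 3.19 FPKM for those present in K11 and 3.29 FPKM for those present in QX1, and 28 in each direction averaged at least 10 FPKM. A listed 0 can be a level below the rounding or too few fragments, and K11 libraries listed 10230.3 ± 178 features at 0 against 9949 ± 413 in QX1 libraries (SD, n = 3 each). It does not show that a transcript was absent from the leaves, and why a feature was listed at 0 was not tested.

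The most abundant TEA genes present in K11 and listed at 0 in QX1 were TEA033572.1 and TEA022559.1, described above, and TEA009278.1. TEA009278.1 had 14.2, 14.7 and 19.3 FPKM in K11, was listed at 0 in all QX1 and all K6 libraries, and had 9.53, 11.2 and 8.04 FPKM in YH9. The leading loci were XLOC_055699 (scaffold 5974, plus strand, positions 44709 to 47826) with 31.2, 36.7 and 28.2 FPKM in K11, XLOC_007499 (scaffold 1347, plus strand, positions 889034 to 892050) with 26.8, 26.7 and 23.4 FPKM in K11, and XLOC_055421 (scaffold 592, minus strand, positions 726518 to 728802) with 24.7, 27.4 and 24.7 FPKM in K11. XLOC_007499 was listed at 0 in all 9 libraries of the other genotypes. XLOC_055421 had 0.84 to 1.67 FPKM in K6 and 9.12 to 13.6 FPKM in YH9.

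Listed at 0 in K11, the most abundant TEA genes present in QX1 were TEA030850.1, described above, TEA007510.1 and TEA027246.1. TEA007510.1 had 60, 49.6 and 61.4 FPKM in QX1. Outside QX1 it was listed at 0 in all libraries but 1 of K6, at 10.7 FPKM, and 1 of YH9, at 14.9 FPKM. Its difference was -5.85 ± 1.15 (SE; limma, adjusted p = 0.00188), with an SE of 0.13 in the fit on K11 and QX1 alone. TEA027246.1 had 50.7, 58.7 and 38.8 FPKM in QX1, 8.89 to 13.3 FPKM in K6 and 13 to 19.7 FPKM in YH9. K11 alone of the genotypes was listed at 0 for this gene. Among the loci, XLOC_030052 (scaffold 2753, plus strand, positions 247256 to 249405) had 59.8, 57.1 and 55.4 FPKM in QX1, and XLOC_057070 (scaffold 6218, minus strand, positions 125038 to 127182) had 31.3, 36.6 and 34.4 FPKM there. The difference of XLOC_030052 was -5.87 ± 0.61 (SE), with an SE of 0.12 in the fit on K11 and QX1 alone. XLOC_057070 did not exceed 0.08 FPKM in any library outside QX1. The third locus, XLOC_034567, is given above.

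**Figure D5:**
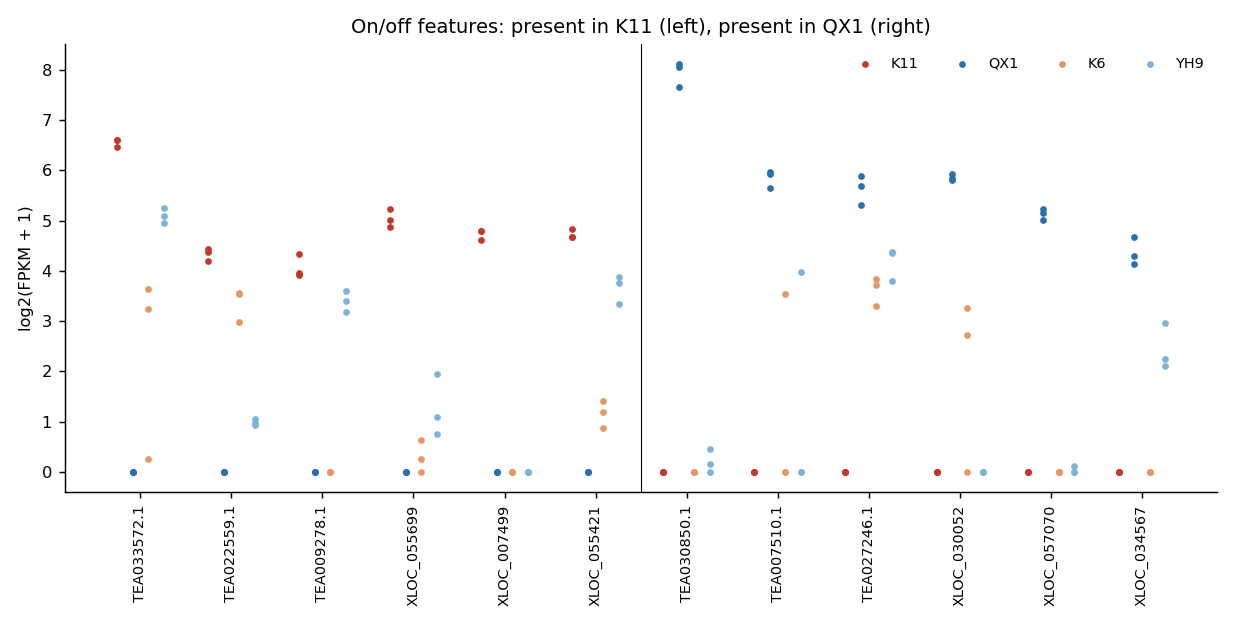
FPKM on the log2(FPKM + 1) scale (vertical axis) of the on/off features with the highest levels, for the 6 present in K11 (left of the line) and the 6 present in QX1 (right of it), with points for the 3 libraries of K11, QX1, K6 and YH9 from left to right. XLOC_007499 is above 0 in K11 alone, and TEA027246.1 is at 0 in K11 alone.

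The other genotypes showed on which side the on/off features were unusual, with on and off defined over all 3 libraries as above. A state could thus turn on 1 library, as in XLOC_046623 with 2.6, 0 and 3.07 FPKM in K6. The library at 0 there was K6 replicate 2, which listed 10923 features at 0, against 9778 and 10241 in K6 replicates 1 and 3. How far the counts below depend on single K6 or YH9 libraries was not tested. Of the 241 present in K11 and off in QX1, 29 were on in K6 and 102 off there, and 62 were on in YH9 and 71 off. Both K6 and YH9 were off in 44, which K11 alone of the 4 genotypes had, and both were on in 9, which QX1 alone lacked. Of the 334 off in K11 and present in QX1, 92 were on in K6 and 82 off there, and 83 were on in YH9 and 112 off. Both were on in 42, which K11 alone lacked, and both were off in 42, which QX1 alone had. In 165 features of the first set and 221 of the second, K6 or YH9 met neither the on nor the off definition. This group includes traces, such as XLOC_000771 with at most 0.03 FPKM in K6 and 0.02 FPKM in YH9. Counts of features that a genotype alone had or lacked thus depend on the exact limits, and they describe listed values only. The remaining features were on in one and off in the other.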

How the data were processed

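RNA sequencing of leaves gave 1 table per library with an FPKM value for each feature, as deposited by the authors and not pooled. Bowtie2 2.2.8 and TopHat2 2.1.1 were used per the submitters' processing notes. No source used here states how FPKM were computed, on which build and annotation, or whether strand was counted. The extraction text in the labels speaks of retinas, against the tissue label, and the material was taken as leaf. No column was without a sample.

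Because FPKM are not counts, log2(FPKM + 1) was tested with limma 3.58.1 in R 4.3.3 (trended, robust prior), which understates changes of low features. All 12 libraries entered the fit, with 1 mean for each genotype, and the contrast was K11 minus QX1. P-values were adjusted over all 26539 features. The fit was first tested on simulated data with independent normal noise, which the real libraries need not follow. SE and intervals are those of limma.

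Features were classed by the mean of the K11 and QX1 means at 1, 10 and 100 FPKM. Named were, per class from 1 FPKM up, kind and direction, the 2 called features with the greatest difference and no overlap of libraries, the 2 with the greatest gain and loss in FPKM, and per direction and kind the 3 most abundant on/off features. The comparison and these rules were chosen with earlier results of these data known. Within a genotype at most 0.733% of values above 0 were identical between libraries, so none was a copy. The alternatives tried were no filter, a filter of 5 FPKM, a pseudocount of 0.1, TMM and quantile scaling, and a replicate block. Others were a fit on 6 libraries, other limits for classes and on/off features, and leaving out each K11 or QX1 library.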

Additional observations from a re-analysis of the deposited data

How the results depend on the processing

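Of the 468 values that the alternatives gave for the 36 features named by rule, all kept their direction and 467 their call, the exception being TEA032499.1 without QX1 replicate 2 (0.90). A filter of 5 FPKM left 17347 features to test and 3074 calls, 1694 higher and 1380 lower in K11. Requiring 5 FPKM for presence left 58 on/off features present in K11 and 62 present in QX1. With a pseudocount of 0.1 there were 3794 higher and 2892 lower features, and the fold of 28 of the 36 named features was over 1.5 times larger. Quantile normalization moved 1 of them by that much, XLOC_064824 (-1.47), and no other alternative did. Leaving out each K11 or QX1 library in turn gave 5383 to 5561 calls (2962 to 3111 higher, 2416 to 2465 lower). Abundant features then numbered 66 to 73 higher and 101 to 133 lower, and the ratio of XLOC to TEA call rates was 2.11 to 2.18. On/off features numbered 272 to 332 present in K11 and 378 to 427 present in QX1. Counts of on/off features rise when a library is left out because fewer libraries have to meet the definition. The labels number the libraries 1 to 3 in each genotype. Deviations of K11 and QX1 libraries with the same number correlated at 0.0306, -0.0581 and -0.118, and those with different numbers at -0.0564 to 0.112. No pairing by number was seen on this measure, but so few libraries cannot exclude it. With the replicate block 3020 features were higher and 2424 lower, 5437 of them called in the same direction as without it. No alternative corrected for read counts, which the files do not give, so features below 1 FPKM are the least certain.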

Other observations

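Called features were placed by where the K6 and YH9 means fell against the midpoint of K11 and QX1 on the log2 scale. Of the 3019 features higher in K11, K6 lay on the K11 side in 779 (25.8%) and YH9 in 1353 (44.8%). Both lay on the QX1 side in 1362, which makes K11 the high genotype, and both on the K11 side in 475. Of the 2425 features lower in K11, K6 lay on the K11 side in 1037 (42.8%) and YH9 in 1312 (54.1%). Both lay on the QX1 side in 815 and both on the K11 side in 739. Among the XLOC loci lower in K11, K6 lay on the K11 side in 51.8% of 820, against 38.1% of the 1605 TEA genes. The features were chosen for their difference between K11 and QX1, and these counts carry no test.

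Over all tested XLOC loci 35.9% were called, and 57% of the called loci were higher in K11. Of 704 pairs of tested loci that follow each other on a scaffold less than 20000 bases apart, both were called in 138, in the same direction in 113 and in opposite directions in 25. On the same strand 75 pairs went the same way and 15 opposite ways, and on opposite strands 38 and 10. Of the 434 scaffolds with 2 or more called loci, 203 had all of them called in the same direction. Of the 36 scaffolds with 2 or more on/off loci, 13 held only loci present in K11, 9 only loci present in QX1 and 14 both kinds. These counts carry no test, and whether such neighbours are parts of a single transcript was not tested.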
